A study of Homo sapiens with 6 samples.

Results

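Iron and haem handling was followed through 10 genes, named by symbol with earlier results of these data known, among the 61806 gene rows of the deposited table. They cover iron storage (FTL, FTH1, NCOA4), uptake and intracellular transport (TFRC, SLC11A2), export (SLC40A1), iron sensing (IREB2, ACO1) and haem breakdown (HMOX1, BLVRB). Each symbol matched 1 row, and all 10 genes had enough counts to be tested. The cells were A549, an established human lung adenocarcinoma line labelled as wild type, in which mutation of KEAP1 keeps the antioxidant factor NRF2 active. Japoflavone B libraries (3, titled LE-532) came from cells given the compound for 24 h, with a dose of 40 in no stated unit, and DMSO libraries (3) came from cells given the solvent for the same time, all after 24 h of seeding. The study asked how transcripts changed with the compound, which its title calls a PARP1 inhibitor that triggers pyroptosis.

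Mammalian cells take up iron from transferrin through the transferrin receptor, store it in ferritin shells of heavy and light chains, and release it through ferroportin. Iron regulatory proteins bind a stem-loop, the iron-responsive element, in the untranslated regions of several of these mRNAs when iron is scarce. In the 5′ untranslated region binding blocks translation, which mRNA counts do not measure, whereas in the 3′ untranslated region of the transferrin receptor mRNA it slows decay. NRF2 drives, and the haem-binding repressor BACH1 restrains, ferritin, ferroportin and haem oxygenase genes.

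The element links most of these genes, so its sequence was read from GENCODE 29 transcripts (GRCh38). Windows of 27 bases were searched on the transcript strand for a C, any 5 bases, CAGTGN and 5 more bases, where these last 5 pair with the 5 before CAGTGN (Watson-Crick or G-T). The capitals mark the 6-base loop, with the unpaired c 6 bases before it.
FTL, 5′ untranslated region, chr19:48965336-48965362, plus strand: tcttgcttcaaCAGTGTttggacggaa
FTH1, 5′ untranslated region, chr11:61967575-61967601, minus strand: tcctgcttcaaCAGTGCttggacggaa
SLC40A1, 5′ untranslated region, chr2:189580662-189580688, minus strand: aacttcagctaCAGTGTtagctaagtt
TFRC, 3′ untranslated region, chr3:196050980-196051006, minus strand: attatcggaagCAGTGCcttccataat
TFRC, 3′ untranslated region, chr3:196050576-196050602, minus strand: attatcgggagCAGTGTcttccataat
TFRC, 3′ untranslated region, chr3:196050511-196050537, minus strand: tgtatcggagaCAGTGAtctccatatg
TFRC, 3′ untranslated region, chr3:196050464-196050490, minus strand: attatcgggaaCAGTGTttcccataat
SLC11A2, 3′ untranslated region, chr12:50988270-50988296, minus strand: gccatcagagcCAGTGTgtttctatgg
In FTL, FTH1, SLC40A1 and the 4 TFRC windows all 5 stem positions paired. Such a window was found in the 5′ untranslated region of 31 of 18989 protein-coding genes (0.163%) and in the 3′ untranslated region of 128 of 19537 (0.655%). With 4 pairs of 5, a looser match that 4.55% of genes met in the 3′ untranslated region at 4 or 5 pairs, SLC11A2, IREB2 and ACO1 each had 1 window. The SLC11A2 window is in 5 of its 11 transcripts. No window was found in HMOX1, BLVRB or NCOA4. A match of letters is a description and not a measured site, and an element with other loop letters would be missed by this search.

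Of the 10 genes, 3 rose after Japoflavone B (TFRC, HMOX1 and NCOA4) and 5 fell (SLC40A1, FTL, IREB2, SLC11A2 and FTH1), while BLVRB and ACO1 did not pass the test. The test was edgeR's quasi-likelihood test of counts with Benjamini-Hochberg adjustment over 16082 genes and a threshold of 0.05. It called 70.0% of all those genes, 34.7% higher and 35.4% lower, so 8 calls in 10 is near the background and is no result about this group. The sizes were uneven: SLC40A1 and FTL fell by 1.97 and 1.39 on the log2 scale, TFRC, HMOX1 and NCOA4 rose by about 2-fold, and the other 5 lay between -0.32 and -0.03 log2, inside the middle 50% of all genes (-0.59 to 0.49). The median was -0.08 log2 over the 10 genes and 0 over all genes tested. FPKM of the groups did not overlap for 9 of the 10, against 71.6% of all genes tested. With 3 libraries against 3, the exact two-sided permutation test of one gene cannot go below p = 0.1, which it reached for all 8 called genes.

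**Figure D1:**
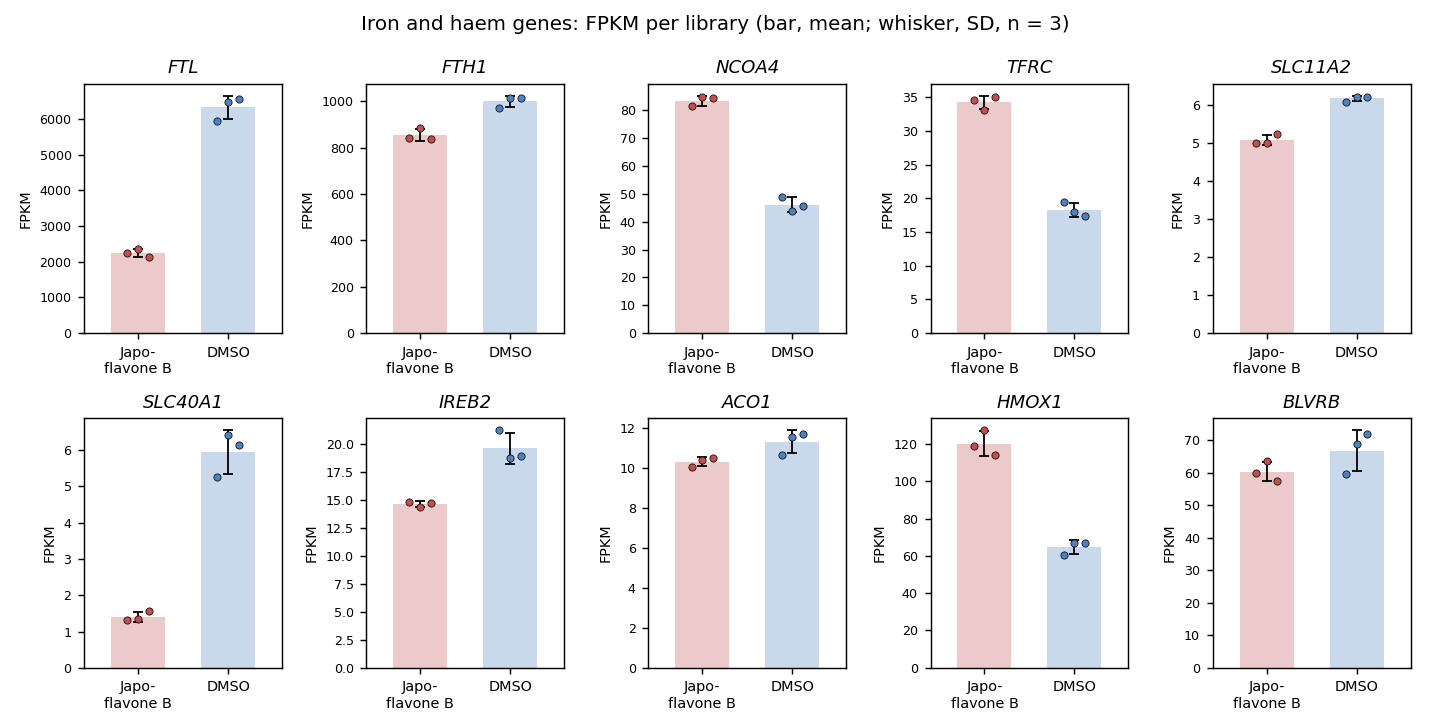
FPKM of the 10 genes in each library, Japoflavone B left of DMSO; points are libraries, bars means and whiskers SD (n = 3). FTL and SLC40A1 are lower, and NCOA4, TFRC and HMOX1 higher, in all 3 Japoflavone B libraries than in any DMSO library, while the points of BLVRB overlap.

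Depth was 15733769 to 19822366 counts in the Japoflavone B libraries and 15298531 to 21744407 counts in the DMSO libraries. Mitochondrial genes took 8.43% ± 0.127 of counts after Japoflavone B and 4.36% ± 0.371 after DMSO (SD, n = 3), and no call among the 10 genes changed when these genes were left out. The 5 epithelial markers summed to 213 to 226 FPKM after Japoflavone B and to 687 to 769 FPKM after DMSO, and 4 of them fell, led by KRT18, KRT8 and CDH1. Their part in the results was not tested. Of 10 markers of blood, endothelial and connective tissue cells, 8 stayed under 1 FPKM in every library and the red cell genes HBA1 and HBB had no counts. The exceptions were EPOR, and COL1A1 at 0.473 FPKM after Japoflavone B and 4.64 FPKM after DMSO. The summed level of these 10 was 4.28 to 4.45 FPKM after Japoflavone B and 7.61 to 8.14 FPKM after DMSO. In bulk RNA, fewer cells with a transcript and less of it per cell cannot be told apart.

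Of the storage genes, FTL and FTH1 fell, by unlike amounts, and NCOA4 rose. FTL (ENSG00000087086, chromosome 19, 48965309 to 48966879, GRCh38) encodes the light chain, which helps iron to mineralise inside the shell. It had 2253, 2352 and 2126 FPKM in the Japoflavone B libraries, against 5946, 6470 and 6566 FPKM in the DMSO libraries. All 3 Japoflavone B libraries were far below every DMSO library. FTL was 2.63-fold lower (log2 fold change -1.39 ± 0.052 SE; edgeR adjusted p = 4.43e-19), and 9.05% of genes tested fell further. It took 0.195% ± 0.00988 of all gene counts after Japoflavone B and 0.551% ± 0.0291 after DMSO (SD, n = 3). By mean FPKM it ranked 8 among all genes after Japoflavone B and 3 after DMSO.

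FTH1 (ENSG00000167996, chromosome 11, 61959718 to 61967634) encodes the heavy chain, which oxidises ferrous iron. It had 844, 885 and 837 FPKM in the Japoflavone B libraries and 970, 1015 and 1014 FPKM in the DMSO libraries. The groups did not overlap, but the change was small, -0.12 ± 0.047 log2 (95% interval -0.22 to -0.03; edgeR adjusted p = 0.0234). That call was lost without Japoflavone B replicate 1 or 3 (edgeR adjusted p = 0.138 and 0.128) and without DMSO replicate 2 (0.0540).

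The FTH1 level was 37.5%, 37.6% and 39.4% of the FTL level per length in the Japoflavone B libraries, against 16.3%, 15.7% and 15.4% in the DMSO libraries. This ratio does not depend on how libraries are scaled. It was higher in all 3 Japoflavone B libraries, with a difference of 1.27 in the mean log2 ratio (exact two-sided permutation p = 0.1, the smallest possible).

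**Figure D2:**
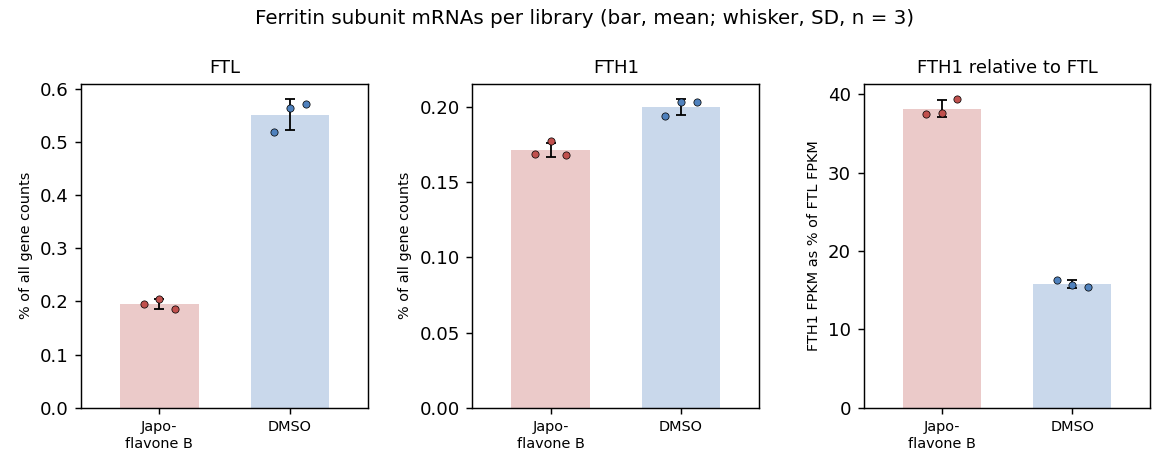
Share of all gene counts that FTL and FTH1 took (left and middle, %) and FTH1 FPKM as % of FTL FPKM (right), Japoflavone B left of DMSO; points are libraries, bars means and whiskers SD (n = 3). The FTL share was 0.195% after Japoflavone B and 0.551% after DMSO, the FTH1 share 0.171% and 0.200%, and the ratio 38.2% and 15.8%.

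Ferritin genes have many processed copies, and reads that fit several copies may have been lost or split. Of 16 rows named as FTL pseudogenes 4 had counts, and of 25 rows named as FTH1 pseudogenes 16 had counts. Together the FTL copies held 0.237% to 0.316% of the FTL count in Japoflavone B libraries and 0.219% to 0.256% in DMSO libraries. The FTH1 copies held 1.66% to 1.80% of the FTH1 count in Japoflavone B libraries and 1.43% to 1.81% in DMSO libraries. The FTL copy with most counts, FTLP3, had 122, 79 and 78 counts in Japoflavone B libraries against 221, 257 and 218 in DMSO libraries (-1.13 ± 0.15 log2; edgeR adjusted p = 2.33e-07), the direction of FTL. The FTH1 copies with most counts, FTH1P2 and FTH1P7, did not pass (-0.11 and 0.00 log2; edgeR adjusted p = 0.403 and 0.997).

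NCOA4 (ENSG00000266412, chromosome 10, 46005088 to 46030623) encodes the receptor that carries ferritin to the lysosome, where its iron is freed. It had 81.5, 84.8 and 84.3 FPKM in the Japoflavone B libraries, against 48.9, 43.7 and 45.8 FPKM in the DMSO libraries. All 3 Japoflavone B libraries were above every DMSO library, and the gene was 1.94-fold higher (0.96 ± 0.053 log2; edgeR adjusted p = 2.82e-15). A gene on the opposite strand overlaps it and held 0.512% of the NCOA4 count after Japoflavone B and 0.564% after DMSO; whether counting used the strand is not given in the sources used here.

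TFRC rose, while SLC40A1 and, slightly, SLC11A2 fell. TFRC (ENSG00000072274, chromosome 3, 196012511 to 196082153) encodes the transferrin receptor and has the 4 matching windows printed above. It had 34.5, 33.2 and 35.1 FPKM in the Japoflavone B libraries, against 19.4, 18.0 and 17.5 FPKM in the DMSO libraries. The groups lay far apart, and TFRC was 2.01-fold higher (1.01 ± 0.051 log2; edgeR adjusted p = 3.25e-16), a rise that 9.56% of genes tested exceeded.

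SLC11A2 (ENSG00000110911, chromosome 12, 50979401 to 51028566) encodes DMT1, which moves ferrous iron out of the endosome. It had 4.99, 5.01 and 5.24 FPKM in the Japoflavone B libraries, against 6.08, 6.22 and 6.21 FPKM in the DMSO libraries. The fall was small, -0.18 ± 0.063 log2 (edgeR adjusted p = 0.0143), and the call was lost without Japoflavone B replicate 1 or 2 (edgeR adjusted p = 0.0815 and 0.0503). The table counts all its transcripts together, with and without the window.

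SLC40A1 (ENSG00000138449, chromosome 2, 189560590 to 189583758) encodes ferroportin, the iron exporter. It had 110, 89 and 122 counts, or 1.32, 1.34 and 1.57 FPKM, in the Japoflavone B libraries, against 462, 589 and 397 counts, or 5.26, 6.42 and 6.15 FPKM, in the DMSO libraries. The groups lay far apart, though the counts are the lowest of the 10 genes. SLC40A1 was 3.92-fold lower (-1.97 ± 0.12 log2; edgeR adjusted p = 2.26e-14), the largest change among the 10 genes, and 4.05% of genes tested fell further.

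Of the iron sensors, IREB2 fell and ACO1 did not pass. IREB2 (ENSG00000136381, chromosome 15, 78437431 to 78501453) encodes iron regulatory protein 2, which is degraded when iron is plentiful. It had 14.9, 14.4 and 14.8 FPKM in the Japoflavone B libraries and 21.3, 18.8 and 19.0 FPKM in the DMSO libraries. DMSO replicate 1 stood above the other two, the groups did not overlap, and the change was -0.32 ± 0.055 log2 (edgeR adjusted p = 8.20e-06).

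ACO1 (ENSG00000122729, chromosome 9, 32384603 to 32454769) encodes iron regulatory protein 1, which is a cytosolic aconitase while it holds an iron-sulfur cluster. It had 10.0, 10.4 and 10.5 FPKM in the Japoflavone B libraries and 10.7, 11.6 and 11.7 FPKM in the DMSO libraries. FPKM did not overlap, yet with trimmed-mean scaling the change was -0.03 log2 (95% interval -0.15 to 0.09; edgeR adjusted p = 0.658). It was called lower with library totals alone as the scaling (-0.13 log2, edgeR adjusted p = 0.0466) and on log2(TPM + 1) with limma (-0.24 log2, adjusted p = 0.00323). The ratio of IREB2 to ACO1 per length was 1.48, 1.38 and 1.41 in the Japoflavone B libraries and 2.00, 1.63 and 1.62 in the DMSO libraries. The difference in mean log2 ratio was -0.29 (exact two-sided permutation p = 0.1), and -0.19 without DMSO replicate 1.

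Of the haem breakdown genes, HMOX1 rose and BLVRB did not pass. HMOX1 (ENSG00000100292, chromosome 22, 35380361 to 35394214) encodes haem oxygenase 1, which opens the haem ring and frees its iron. It had 119, 127 and 114 FPKM in the Japoflavone B libraries, against 60.3, 66.8 and 66.8 FPKM in the DMSO libraries. The groups did not overlap, and the gene was 2.00-fold higher (95% interval of the log2 change 0.88 to 1.11; edgeR adjusted p = 5.27e-15), so that 9.77% of genes tested rose further.

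BLVRB (ENSG00000090013, chromosome 19, 40447765 to 40465764) encodes biliverdin reductase B, a flavin and biliverdin reductase. It had 60.1, 63.6 and 57.5 FPKM in the Japoflavone B libraries and 59.7, 68.8 and 71.9 FPKM in the DMSO libraries. DMSO replicate 1 lay among the Japoflavone B libraries, and the change was -0.04 log2 (95% interval -0.18 to 0.09; edgeR adjusted p = 0.582). On log2(TPM + 1) it was called lower (-0.25 log2, limma adjusted p = 0.00795).

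**Figure D3:**
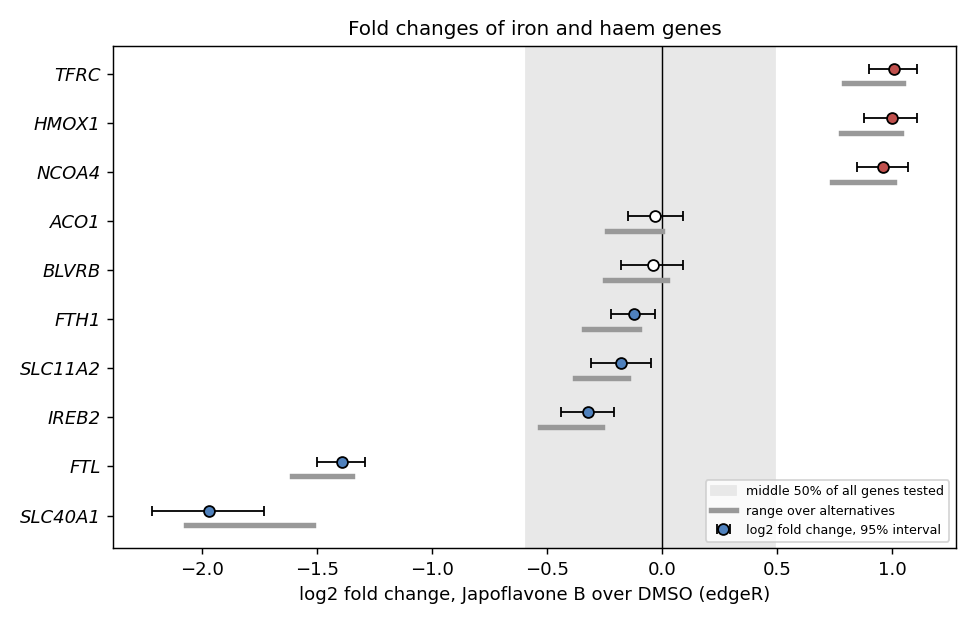
Log2 fold change of each gene, Japoflavone B over DMSO (points, red for higher, blue for lower, white for not past the threshold; whiskers, 95% interval), above the range of its value over the alternative settings (grey bars), with the middle 50% of all genes tested shaded (-0.59 to 0.49). SLC40A1, FTL, NCOA4, HMOX1 and TFRC lie outside the shaded range, and each grey bar of these 5 stays on its side of 0.

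In FPKM the order of levels after Japoflavone B was FTL, FTH1, HMOX1, NCOA4, BLVRB, TFRC, IREB2, ACO1, SLC11A2 and SLC40A1, and no neighbours overlapped. After DMSO the order was FTL, FTH1, BLVRB, HMOX1, NCOA4, IREB2, TFRC, ACO1, SLC11A2 and SLC40A1. There BLVRB and HMOX1, IREB2 and TFRC, and SLC11A2 and SLC40A1 overlapped within each pair. These levels use the deposited exonic sizes, 871 bases for FTL and 17376 bases for TFRC, which bear on any comparison between genes.

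Among 111 other genes of iron and haem biology, set out in 10 lists, 100 could be tested: 36 rose, 38 fell and 26 did not pass (median -0.04 log2). The 74.0% called is near the 70.0% of all genes, so the lists are described by their members. Where 5 or fewer genes of a list rose or fell, they are named. Each log2 value is a change of Japoflavone B over DMSO.

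Among uptake genes 6 of 13 rose and 5 fell. Of those that rose, TF had only 31, 20 and 20 counts in Japoflavone B libraries and 6, 8 and 5 in DMSO libraries. CYBRD1 rose by only 0.15 log2 and its FPKM overlapped between groups. Its call was lost without the filter (edgeR adjusted p = 0.0610), with library totals alone (0.463) and without DMSO replicate 2 (0.139), among other settings. SLC39A14, the ZIP14 importer of iron not bound to transferrin, had 59.5 ± 1.62 FPKM after Japoflavone B and 19.5 ± 0.829 FPKM after DMSO (SD, n = 3), 3.28-fold higher (edgeR adjusted p = 5.32e-21). LRP1, the receptor for haem bound to haemopexin, was 1.56-fold higher. HFE, which binds the transferrin receptor, was 2.20-fold lower (edgeR adjusted p = 3.62e-13), at 3.41 ± 0.138 FPKM after Japoflavone B and 8.05 ± 0.327 FPKM after DMSO (SD, n = 3). The other 4 that fell were STEAP1, STEAP2, SLC39A8 and TFR2. TFR2, a second transferrin receptor, had only 9, 11 and 15 counts in Japoflavone B libraries and 46, 33 and 24 in DMSO libraries. The STEAP2 call was lost without Japoflavone B replicate 2 (edgeR adjusted p = 0.103). On log2(TPM + 1) with limma, 3 uptake genes rose.

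Other genes of storage, export and sensing were few at measurable levels. Of 5 storage and chaperone genes, PCBP2, an iron chaperone that delivers iron to ferritin, rose by 0.43 log2, while HERC2, a ligase that marks NCOA4 for degradation, and GLRX3, a cytosolic glutaredoxin, fell by 0.33 and 0.27 log2. PCBP3 was also called higher without Japoflavone B replicate 3 (0.68 log2, edgeR adjusted p = 0.0357). Of 5 export and hepcidin genes, CP, the ferroxidase ceruloplasmin that works with ferroportin, was 3.12-fold lower (edgeR adjusted p = 1.00e-16), at 2.67 ± 0.0635 FPKM after Japoflavone B and 8.95 ± 0.676 FPKM after DMSO (SD, n = 3). BMP6, which induces hepcidin in liver, fell by 0.53 log2, and ERFE, the hormone erythroferrone, rose by 0.63 log2. TMPRSS6 was also called higher without DMSO replicate 1 (0.86 log2, edgeR adjusted p = 0.0488). CP thus fell, as SLC40A1 did. Hepcidin itself, HAMP, had too few counts to test. Of 5 genes that act on or beside the iron regulatory proteins, EPAS1, the hypoxia factor HIF-2α, rose by 1.12 log2 and FBXL5, the iron-sensing adaptor that degrades iron regulatory proteins, by 0.25 log2. SKP1 and CUL1, which form the ligase with FBXL5, fell by 0.56 and 0.26 log2. On log2(TPM + 1) with limma FBXL5 was not called (0.03 log2, adjusted p = 0.580).

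Of 14 tested haem synthesis genes, 6 rose and 6 fell. The mitochondrial glycine carrier SLC25A38 was 2.30-fold higher (edgeR adjusted p = 8.90e-15). CPOX, the coproporphyrinogen oxidase, was 1.87-fold higher (edgeR adjusted p = 1.97e-13), at 27.5 ± 0.556 FPKM after Japoflavone B and 15.8 ± 0.206 FPKM after DMSO (SD, n = 3). The early enzymes ALAS1 and ALAD also rose, by 0.52 and 0.72 log2. TMEM14C, which is needed for the porphyrin precursor to reach the mitochondrial matrix, fell by 0.59 log2, and FECH, which inserts iron in the last step, by 0.57 log2. UROS, UROD and PPOX, enzymes of the middle and late steps, fell by 0.28, 0.29 and 0.27 log2. Without DMSO replicate 2 the number that fell was 3, as UROD, PPOX and ABCB6 lost their calls (edgeR adjusted p = 0.0821, 0.109 and 0.0726). UROD and PPOX also lost theirs without DMSO replicate 3 or Japoflavone B replicate 2, UROD without Japoflavone B replicate 1 and PPOX without Japoflavone B replicate 3.

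Among genes that move or break down haem, 5 of 9 tested fell and 2 rose. ABCG2, which exports porphyrins and drugs, was 5.18-fold lower (edgeR adjusted p = 4.57e-21), at 3.34, 3.80 and 3.62 FPKM in Japoflavone B libraries and 21.3, 19.5 and 18.8 FPKM in DMSO libraries. FLVCR1, described as a haem exporter, was 2.16-fold lower, and POR, the reductase that feeds electrons to haem oxygenase, was 1.43-fold lower. The other 2 that fell were FLVCR2 and PGRMC1, by 1.65 and 0.15 log2. The PGRMC1 call was lost without DMSO replicate 3 or Japoflavone B replicate 1 or 3 (edgeR adjusted p = 0.270, 0.155 and 0.138). Those that rose were HMOX2, the constitutive haem oxygenase, and BLVRA, the main biliverdin reductase, by 0.29 and 0.25 log2. On log2(TPM + 1) with limma neither was called higher (0.07 and 0.03 log2, adjusted p = 0.295 and 0.612), and on log2(FPKM + 1) BLVRA was not (adjusted p = 0.0502). ABCG2, FLVCR1 and SLC40A1, all exporters, thus fell by 2.37, 1.11 and 1.97 log2.

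Among 22 mitochondrial iron and iron-sulfur cluster genes, 4 rose, 7 fell and 11 did not pass. FDXR, ferredoxin reductase and a known p53 target, was 5.49-fold higher (edgeR adjusted p = 3.37e-21), ISCU, the scaffold on which clusters form, 2.43-fold higher, and SLC25A37, the iron importer mitoferrin-1, 2.15-fold higher. The other riser was HSPA9, a chaperone of cluster transfer (0.41 log2). With limma the number that fell was 12 on log2(FPKM + 1) and 14 on log2(TPM + 1). Of 9 cytosolic assembly genes, 4 rose: CIAO1, CIAO2B and MMS19, which together hand clusters to target enzymes, by 0.47, 0.77 and 0.62 log2, and NUBP2 by 0.62 log2. NUBP1, the partner of NUBP2, fell by 0.27 log2, a call lost without Japoflavone B replicate 3 or DMSO replicate 3 (edgeR adjusted p = 0.0638 and 0.0624). CIAO2A, not called in the main test, was called lower without DMSO replicate 1 (-0.15 log2, edgeR adjusted p = 0.0228). The same call was made with library totals alone (-0.21 log2, edgeR adjusted p = 0.00516) and with a filter of at least 2 FPKM (edgeR adjusted p = 0.0320). With limma it was also lower on log2(FPKM + 1) and log2(TPM + 1) (adjusted p = 0.0127 and 0.00101).

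All 8 genes of NRF2 and BACH1 control passed, 5 higher and 3 lower, where 70.0% of all genes tested passed. The list was chosen with earlier results of these data known, so that count is no result about it. BACH1, the haem-sensing repressor of HMOX1, was 2.43-fold higher (edgeR adjusted p = 5.02e-16), at 9.42, 9.46 and 10.0 FPKM in Japoflavone B libraries and 4.25, 4.24 and 4.25 FPKM in DMSO libraries. The small MAF partners MAFK and MAFF were 3.46-fold and 3.66-fold higher, MAFG rose by 0.30 log2 and NFE2L2, which encodes NRF2, by 0.16 log2. On log2(TPM + 1) with limma neither MAFG nor NFE2L2 was called (0.09 and -0.05 log2, adjusted p = 0.132 and 0.416). The MAFF change was 1.87 log2, and 1.24 on log2(FPKM + 1). KEAP1, CUL3 and RBX1, the ligase that degrades NRF2, fell by 1.07, 0.65 and 0.60 log2.

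All 10 genes listed for ferroptosis, a death that depends on iron and lipid peroxides, also passed, 5 higher and 5 lower (median -0.04 log2). Of all genes tested 70.0% passed, and this list too was chosen with earlier results known, so the count is no result about ferroptosis. ACSL4, which loads membranes with oxidisable fatty acids, was 2.02-fold higher, CHAC1, which degrades glutathione, 7.99-fold higher, and SLC3A2, a subunit of the cystine importer, 1.30-fold higher, as were PTGS2 and SLC7A11 by 0.50 and 0.19 log2. GPX4, which reduces lipid peroxides, fell by 0.28 log2, AIFM2 by 0.27, DHODH by 0.32, GCH1 by 0.68 and LPCAT3 by 0.67 log2. CHAC1 rests on 152, 161 and 195 counts in Japoflavone B libraries and 28, 36 and 10 in DMSO libraries, and its change was 3.00 log2, against 1.82 on log2(FPKM + 1). The SLC7A11 call was lost without DMSO replicate 2 (edgeR adjusted p = 0.0629) and with library totals alone (0.189), and on log2(TPM + 1) with limma its value was -0.01 log2. The DHODH call was lost without Japoflavone B replicate 1 or 2 or DMSO replicate 2 (edgeR adjusted p = 0.0814, 0.0782 and 0.0986).

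**Figure D4:**
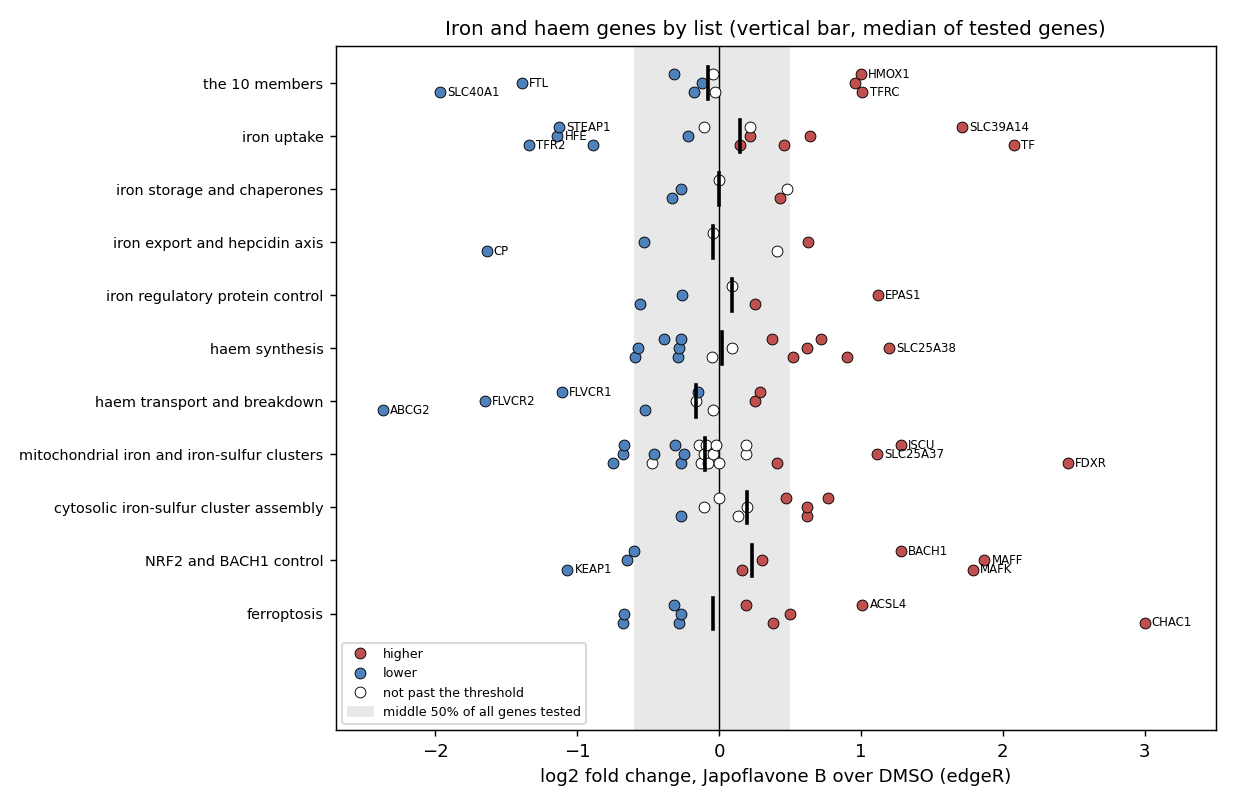
Log2 fold change, Japoflavone B over DMSO, of the 10 genes (top row) and of the tested genes of each list; red points were higher, blue lower, white not past the threshold, the bar is the list's median, and genes at or beyond 2-fold are named. The middle 50% of all genes tested is shaded (-0.59 to 0.49), and every list median lies inside it.

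The share of calls that were higher depends on scaling. It was 49.5% over all genes tested, and 35.0% on log2(TPM + 1) with limma, where the median of all genes moved by -0.17 log2; with library totals alone the median was -0.11 log2. Under these settings TFRC, HMOX1 and NCOA4 were still called higher, and FTL and SLC40A1 lower.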

How the data were processed

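Poly(A) RNA of A549 cells was sequenced in 6 libraries, 3 per treatment label. Nothing in the labels says that they came from separate cultures, so the spread behind each p-value may be technical. Per the submitters' processing notes, cutadapt 1.9.1, HISAT2 2.0.1, HTSeq 0.6.1, DESeq2 and GRCh38 were used, with no roles given. The deposited table holds raw counts per gene and FPKM that the authors scaled by exonic size and column total; recomputed FPKM differed by at most 0.005.

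Counts were filtered with filterByExpr (minimum count 10, minimum total 15) and fitted with edgeR 4.0.16 in R 4.3.3, trimmed-mean scaling, group as the only term. SE is the log2 fold change over the root of the F statistic. Alternatives used DESeq2 1.42.0, limma 3.58.1, other scalings and filters, and each library left out. The workflow was tested on simulated data in which few genes changed. In the real data most genes were called, so that test cannot show how the scaling or the calls behave here. The genes and lists were chosen with earlier results of these data known. Named are the 10 genes, up to 3 genes per list by adjusted p with at least 1 FPKM in a group, and the genes of a list that rose or fell where these were 5 or fewer; other genes were named after their values were seen. The replicate numbers were not used as pairs in the main test. Deviations from the group mean correlated between same-numbered libraries at only 0.013, -0.004 and -0.045. This shows no strong shared shift but cannot tell whether those libraries were handled together. Some genes of the lists are not reported here.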

Additional observations from a re-analysis of the deposited data

How the results depend on the processing

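Over 18 alternatives, 163 of the 172 values of the 10 genes stayed on the same side of the threshold. No called gene changed direction. BLVRB, not called in the main test, ranged from -0.25 to 0.02 log2, so its sign was not kept. The number of the 10 genes called higher was 3 in each setting that was run. The number called lower was 5, 6 with library totals alone, 7 on log2(TPM + 1) and 3 to 5 when a library was left out; it was 3 without Japoflavone B replicate 1. The changed calls were those of FTH1 and SLC11A2 (lost) and of ACO1 and BLVRB (gained with library totals or TPM), as given with each gene; the cause was not tested. With the replicate number as a block, FTH1 stood at -0.12 log2 and lost its call (edgeR adjusted p = 0.0572), 4 of the 10 genes were lower and 3 higher, and over all genes 5502 were higher and 5618 lower, against 5577 and 5686 without it. Adding pseudogene counts changed neither ferritin call. For the 30 genes named by adjusted p from the lists, 510 of 510 values kept their call. They were picked for the smallest adjusted p in these same data, a choice that favours such an outcome. Other list members lost or gained calls, and only some of these changes are given with the lists. On log2(TPM + 1), 3 uptake, 3 NRF2 and BACH1, 1 iron regulatory protein and 0 haem transport genes were higher. Counts are lowest for SLC40A1 among the 10 genes, and TF, TFR2, FLVCR2 and CHAC1 also rest on few counts.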

Other observations

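The 3 nearest genes were set beside each of FTL, TFRC and HMOX1 by likeness of profile, measured as the Euclidean distance of centred log2 CPM over the 6 libraries among 6906 genes with at least 5 FPKM. Nearest to FTL were SORBS3, PDXK and EFEMP1 (distances 0.0936, 0.0961 and 0.106), nearest to TFRC were TMEM33, KIF3B and ACSL4 (0.0631, 0.0654 and 0.0712), and nearest to HMOX1 were ZYX, AKAP17A and IMP4 (0.0514, 0.0644 and 0.0709). With 2 groups, likeness mostly reflects an equal fold change, and it carries no test. ACSL4 was also in the ferroptosis list.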
